A study of Mus musculus with 26 samples.

Results

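The 10 genes described here encode enzymes and core partners that write, copy and remove 5-methylcytosine (Dnmt1, Uhrf1, Dnmt3a, Dnmt3b, Tet1, Tet2 and Tet3) or form the Polycomb repressive complex PRC2 (Ezh2, Suz12 and Eed). They were chosen by name, and all 10 were found among the 55385 gene identifiers of both count tables and passed the filter on low counts. RNA sequencing was run on intestinal organoids, which are epithelial cultures grown from crypts of C57BL/6 mice in Matrigel with EGF, Noggin, R-spondin and the Wnt pathway activator CHIR-99021. The organoids were given vehicle, the fatty acid arachidonic acid (25 µM, AA below) or its product prostaglandin E2 (50 nM, PGE2 below), and the series' title concerns a change of intestinal stemness by dietary AA. The series' design text names a dimethyl analogue of PGE2 where the treatment protocol names PGE2, so which of the 2 was given is not known here. There were 3 libraries each of vehicle, AA and PGE2 organoids at day 1 and at day 3, and 4 libraries each of vehicle and AA organoids at day 6. The labels do not say whether libraries of a group came from separate cultures or mice, so the p-values below measure the spread between these libraries, which may be technical.

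DNA methyltransferases add a methyl group to cytosine, mostly where it is followed by guanine. Dnmt1, guided by Uhrf1 to newly copied DNA, restores the pattern after replication, Dnmt3a and Dnmt3b can set new marks, and the Tet dioxygenases oxidise 5-methylcytosine, which begins its removal. PRC2 methylates lysine 27 of histone H3 through Ezh2 (or its paralogue Ezh1), needs Suz12 and Eed for activity, and its mark is held to keep developmental regulators silent. Only RNA was measured, so the values below say nothing of the level of the proteins, of DNA methylation or of the histone mark.

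The upstream DNA of the members is shown first as a description of sequence, and its relation to the members' changes was not tested. RefSeq windows (GRCm38.p6) were held for all 10 members, 15 windows in all out of 32807, and the 250 bases before each start were searched on both strands. The letters TTTCCCGC, TTTGGCGC, TTTCGCGC and TTTGCCGC, which are forms of the site bound by the cell-cycle factors of the E2F family, were found in 3 of the 15 windows, each of another member, and in 1.86% of all windows. Every one of these forms contains CG. The windows with a match in Dnmt1, Uhrf1 and Suz12 held 26, 30 and 37 CG, where the median over all windows was 6. The 1.86% is therefore not a share among windows of like CG content. The 3 matches are shown in 30 bases of context, read 5′ to 3′ along the gene, with the match in capitals; the Dnmt1 match is on the opposite strand, so its capitals show the reverse complement of TTTCGCGC.
Dnmt1: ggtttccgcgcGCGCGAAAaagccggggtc
Uhrf1: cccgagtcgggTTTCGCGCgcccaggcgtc
Suz12: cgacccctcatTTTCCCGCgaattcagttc
The stretch of Dnmt1 is chr9:20952824-20952853 on the minus strand, where an exon of another annotated Dnmt1 transcript lies (GENCODE). That of Uhrf1 is chr17:56304117-56304146 and that of Suz12 chr11:79992876-79992905, both on the plus strand and outside annotated exons. The matches began 219, 185 and 219 bases before the respective starts. The letters TGACGTCA, the full palindrome of the cAMP response element, were in no member's window and in 1.55% of all windows.

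Dnmt3a and Dnmt3b are the 2 de novo enzymes, and their windows, like those of Ezh2, Eed and the Tet genes, held none of these letters. Both are shown with every CG in capitals, since CG is the substrate of the enzymes they encode.
Dnmt3a: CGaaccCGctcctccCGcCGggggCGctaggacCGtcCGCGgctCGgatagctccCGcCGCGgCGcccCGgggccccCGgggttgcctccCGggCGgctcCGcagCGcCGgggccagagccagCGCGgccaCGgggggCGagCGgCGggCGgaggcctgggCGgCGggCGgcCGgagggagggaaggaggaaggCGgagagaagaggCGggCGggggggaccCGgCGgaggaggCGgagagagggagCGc
Dnmt3b: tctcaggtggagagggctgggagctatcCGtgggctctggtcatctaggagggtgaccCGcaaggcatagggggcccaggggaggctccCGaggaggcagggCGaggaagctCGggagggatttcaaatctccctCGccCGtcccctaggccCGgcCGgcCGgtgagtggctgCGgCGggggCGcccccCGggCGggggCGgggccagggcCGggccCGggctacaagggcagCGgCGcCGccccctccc
The Dnmt3a stretch is chr12:3806730-3806979 and holds 38 CG, and the Dnmt3b stretch is chr2:153649199-153649448 and holds 21, both on the plus strand. The median over all windows was 6, so both stretches were CG-rich, and members' windows ranged from 2 in an upstream Dnmt1 window to 51 in the Tet2 window. A match of letters is a description of the sequence and shows no binding.

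Libraries of days 1 and 3 held between 10088285 and 14615719 counts, and those of day 6 held between 16141385 and 19762827. Levels below are in CPM, which are counts relative to the scaled library total, with days 1 and 3 scaled together and day 6 apart. Mitochondrial ribosomal RNA took 6.74% to 10.3% of counts at days 1 and 3 and at most 0.266% at day 6, and levels of day 6 are not compared with earlier days. All 8 epithelial markers were present, with summed levels of 3760 to 9441 CPM, and all 9 fibroblast and muscle markers were below 1 CPM in every group. Of 8 immune markers 7 were below 1 CPM in every group, with sums of 1.77 to 6.50 CPM, and endothelial and neural sums were 0.753 to 3.89 CPM. Sums of 5 crypt stem cell markers were 555 to 591 CPM in vehicle, 246 to 256 in AA and 129 to 143 in PGE2 libraries at day 1, and 1786 to 1923, 555 to 608 and 244 to 273 CPM at day 3. At day 6 they were 589 to 743 CPM in vehicle and 430.0 to 643 CPM in AA libraries. Sums of 6 enterocyte markers were 1299 to 1329 CPM in vehicle, 1505 to 1640 in AA and 1160 to 1185 in PGE2 libraries at day 1. At day 3 they were 1566 to 1633 CPM in vehicle, 2727 to 3025 in AA and 2148 to 2409 in PGE2 libraries, and at day 6 they were 1556 to 2274 in vehicle and 4031 to 4792 in AA libraries. Sums of 8 secretory cell markers were 440 to 512 CPM in vehicle, 318 to 330.2 in AA and 493 to 588 in PGE2 libraries at day 1, and 1207 to 1352, 513 to 623 and 837 to 891 CPM at day 3. At day 6 they were 1876 to 2358 CPM in vehicle and 1377 to 1564 in AA libraries. Of 7 secretory markers tested, 3 rose and 3 fell with AA at day 1, and 5 fell and none rose at day 3. With PGE2, 4 rose and 1 fell at day 1, and 2 rose and 4 fell at day 3. With AA at day 6, 1 of 8 rose and 6 fell. In vehicle, 5 of 7 rose from day 1 to day 3, where 19.8% of all tested genes rose. Of 5 crypt stem markers, 4, 4 and 3 fell and 0, 0 and 1 rose with AA at days 1, 3 and 6. With PGE2, 4 and 5 fell and none rose at days 1 and 3. Of 6 enterocyte markers, 5, 6 and 5 rose and none fell with AA at days 1, 3 and 6. With PGE2, 3 rose and 3 fell at day 1, and 4 rose and 2 fell at day 3. Against vehicle, 15.3% to 28.9% of all tested genes rose and 15.5% to 30.1% fell in these 5 comparisons. The sums of these 3 marker lists moved with the treatments. Only the crypt stem sums with AA at day 6 and the secretory sums with PGE2 at day 1 overlapped with vehicle. The part of these markers in the results below was not tested. In these bulk libraries, fewer cells of a type and less RNA per cell cannot be told apart. Day-6 vehicle replicate 4 stood apart for Dnmt3a and Suz12, and the members' fits at day 6 are given with and without it.

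Per length of annotated exon, the members differed widely in level, and the order was led by genes of maintenance methylation and PRC2. In vehicle organoids at day 1, Uhrf1 stood at 52.9 ± 1.95 CPM per kilobase (SD, n = 3), Suz12 at 43.7 ± 1.21 and Dnmt1 at 37.1 ± 0.66. Eed at 17.3 ± 0.866 and Ezh2 at 16.9 ± 1.16 CPM per kilobase overlapped each other, followed by Tet3 at 10.3 ± 1.26 and Dnmt3a at 3.97 ± 0.0977. Tet2 at 2.64 ± 0.207 and Dnmt3b at 2.54 ± 0.149 CPM per kilobase also overlapped, and Tet1 was last at 0.0552 ± 0.00457. Other neighbours in this order did not overlap between libraries. With PGE2 at day 3 the first 2 places were held by Suz12 at 29.4 ± 1.13 and Uhrf1 at 28.5 ± 0.918 CPM per kilobase, which overlapped. At day 6 Uhrf1 led in vehicle at 44.6 ± 3.63 CPM per kilobase (SD, n = 4), overlapping with Dnmt1, and Suz12 led with AA at 39.9 ± 2.19, above Uhrf1 at 33.7 ± 1.33. Within families, Dnmt1 took 82.4% to 88.0% of the length-corrected reads of the 3 methyltransferases as group means, and Tet3 took 73.2% to 81.2% of those of the 3 Tet genes, with Tet1 at 0.125% to 0.95%.

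**Figure D1:**
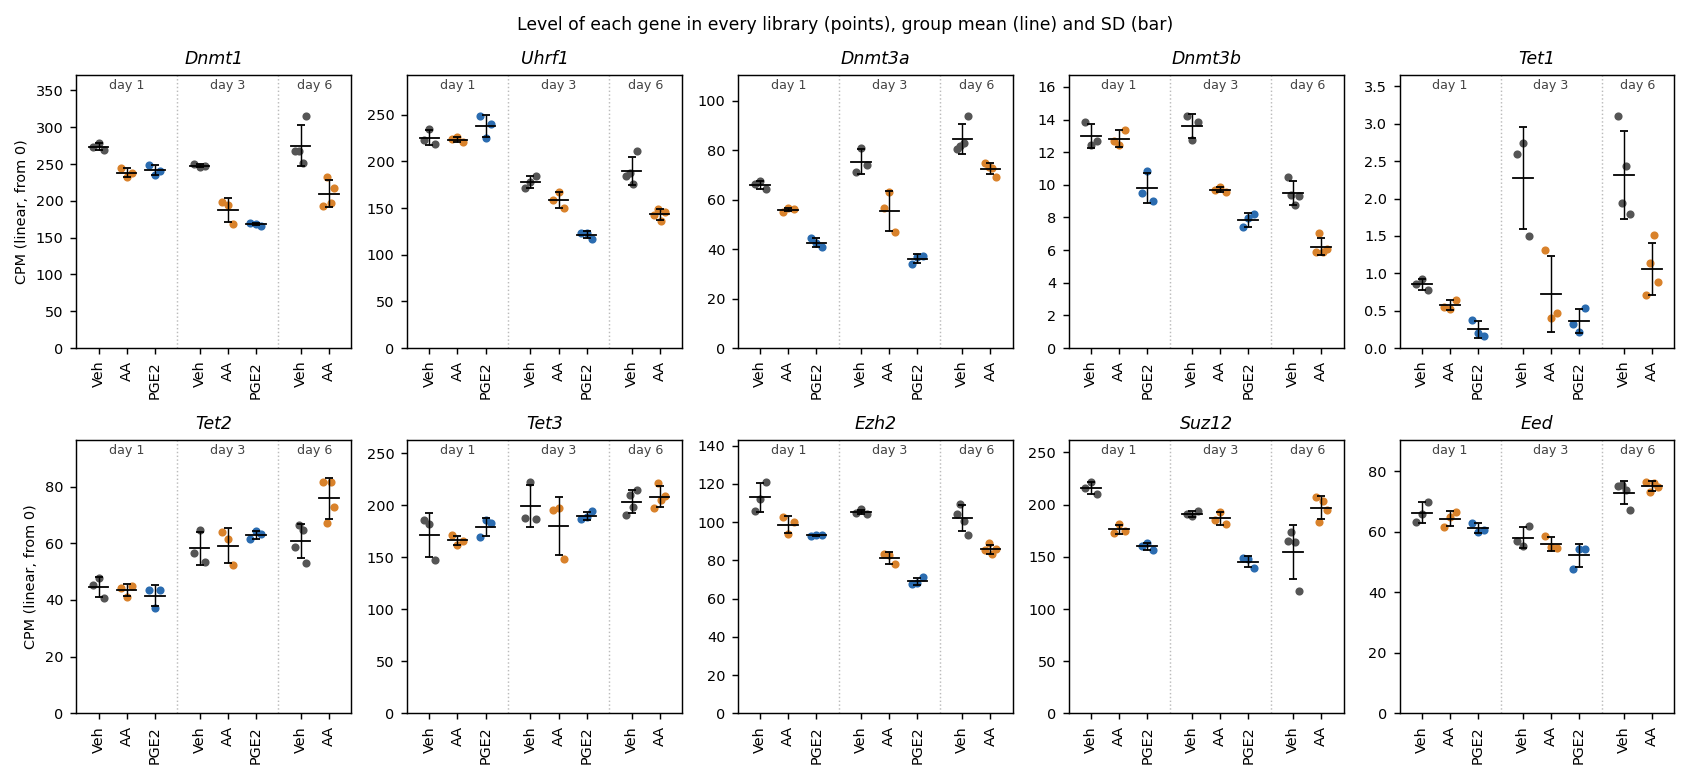
Levels of the 10 genes in CPM on linear axes from 0; each point is a library, the line is the group mean and the bar the SD, with vehicle in grey, AA in orange and PGE2 in blue. Dnmt3a falls from vehicle to AA to PGE2 at days 1 and 3 with no overlap between groups, and Suz12 in the AA libraries lies below vehicle at day 1 and above it at day 6.

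The first question the design puts is how members differed from vehicle under each treatment, by edgeR's quasi-likelihood test with Benjamini-Hochberg adjustment over all genes tested (threshold 0.05). With AA at day 1, 4 of 10 members fell and none rose, where 22.2% of all tested genes fell and 19.5% rose. At day 3, 6 fell and none rose with AA, against a background of 20.1% and 21.2%. At day 6, 6 fell and 2 rose with AA, against 15.5% and 15.3%. With PGE2, 6 fell at day 1 and 8 at day 3 and none rose, where 28.9% and 30.1% of all tested genes fell and 27.0% and 28.9% rose. Median log2 changes of the members were -0.12, -0.27 and -0.24 for AA at days 1, 3 and 6, and -0.23 and -0.55 for PGE2 at days 1 and 3, with medians over all genes of -0.03, -0.03, -0.01, -0.02 and -0.04. AA and PGE2 were compared with the same vehicle libraries at each day, so their results are not independent of each other. Libraries of the 2 groups did not overlap for 5, 6 and 8 members with AA at days 1, 3 and 6 and for 7 and 8 with PGE2 at days 1 and 3, where 53.6%, 45.4%, 32.7%, 62.8% and 62.7% of all tested genes did not overlap.

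**Figure D2:**
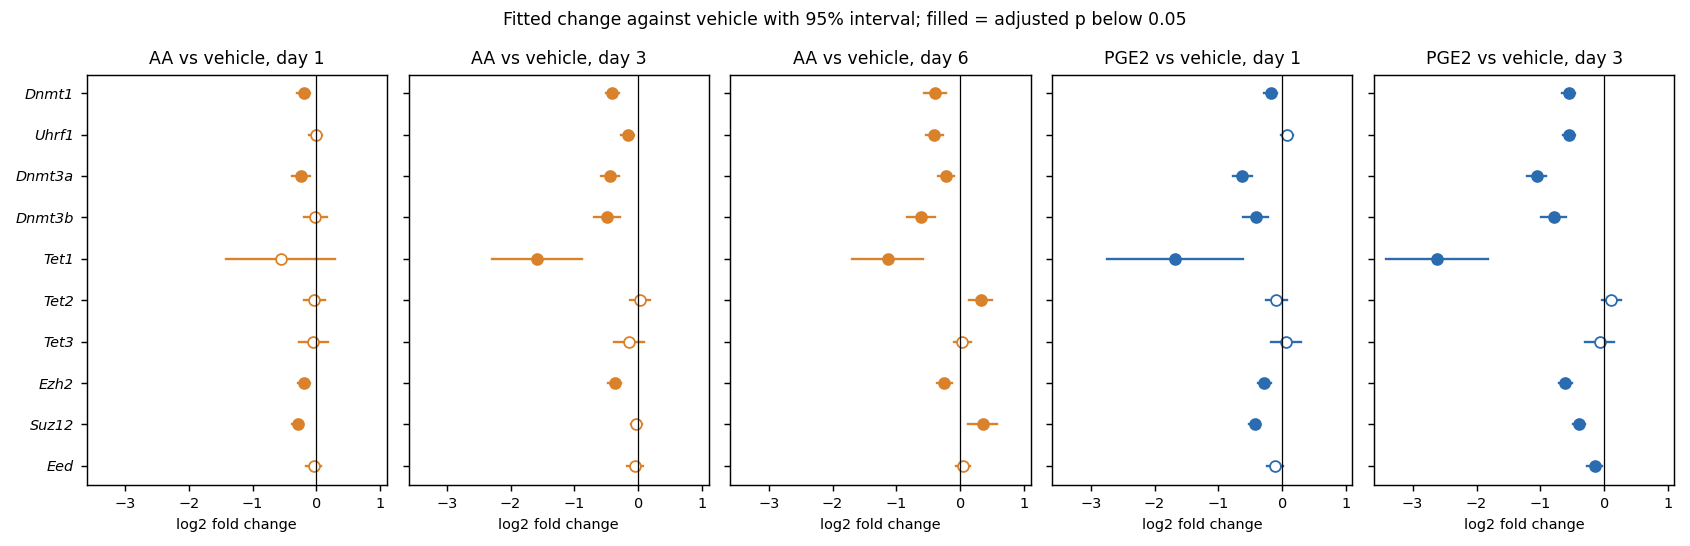
Fitted log2 fold change of each gene against vehicle in 5 comparisons (x axis, log2 units), with the 95% interval as a line; filled points passed an adjusted p of 0.05. Dnmt1, Dnmt3a and Ezh2 lie below 0 and are filled in all 5 panels, while Tet3 is unfilled in all 5 and the Tet1 intervals are the widest.

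Among the genes of maintenance methylation, Dnmt1 fell in all 5 comparisons and Uhrf1 in 3. At day 1, Dnmt1, the enzyme that copies the methylation pattern, stood at 274, 279 and 269 CPM in vehicle, 244, 233 and 238 in AA and 249, 236 and 240.3 in PGE2 libraries. Every treated library was below every vehicle library. At day 3 Dnmt1 stood at 249.9, 246 and 247 CPM in vehicle, 199, 194 and 168 in AA and 169.7, 169 and 167 in PGE2 libraries, again without overlap with vehicle. At day 6 the vehicle libraries held 267, 267, 251 and 315 CPM of Dnmt1 and the AA libraries 192, 232, 197 and 218, with replicate 4 of vehicle the highest and no overlap. The fitted log2 changes of Dnmt1 were -0.20 ± 0.05 (SE, adjusted p = 0.00115), -0.41 ± 0.05 (5.3e-08) and -0.39 ± 0.08 (0.00353) with AA at days 1, 3 and 6. With PGE2 they were -0.18 ± 0.05 (adjusted p = 0.00202) at day 1 and -0.56 ± 0.05 (3.4e-11) at day 3, which is a 1.47-fold lower level.

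Uhrf1, which binds hemimethylated DNA and recruits Dnmt1, did not pass the test at day 1 with either agent. It stood at 223, 235 and 219 CPM in vehicle, 224, 226 and 221 in AA and 248, 225 and 240.4 in PGE2 libraries, and the groups overlapped. At day 3 the values of Uhrf1 were 171, 178 and 184 CPM in vehicle, 159, 167 and 149.9 in AA and 124, 124 and 117 in PGE2 libraries, with all 9 ordered vehicle, AA, PGE2. The PGE2 change at day 3 was -0.55 ± 0.05 on the log2 scale (adjusted p = 5.8e-11), and the AA change was -0.17 ± 0.05 (adjusted p = 0.00714). The AA call on Uhrf1 at day 3 was lost without vehicle replicate 3 (-0.12, adjusted p = 0.0882), without AA replicate 3 (-0.12, 0.0685) and in a fit of those 2 groups alone (-0.16, 0.0706). At day 6, Uhrf1 held 184, 188, 176 and 212 CPM in vehicle and 143, 149, 136 and 146 in AA libraries, which did not overlap, and the change was -0.41 ± 0.06 (adjusted p = 6.98e-04).

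The count ratio of Uhrf1 to Dnmt1 within a library needs no scaling, and it was higher than in vehicle in 3 of the 4 treated groups of days 1 and 3. At day 1 the log2 ratio was -0.28 ± 0.03 (SD, n = 3) in vehicle, -0.09 ± 0.04 with AA and -0.02 ± 0.04 with PGE2. At day 3 it was -0.48 ± 0.06 in vehicle, -0.23 ± 0.08 with AA and -0.47 ± 0.03 with PGE2, so that at day 3 only the AA libraries lay above all vehicle libraries. At day 6 the AA and vehicle means differed by -0.01, with overlap. The 3 contrasts without overlap each had a two-sided exact permutation p of 0.1 and an adjusted p of 0.148 over 40 ratio comparisons, so none passed. Since 0.1 is the smallest p that 3 against 3 allow, none could pass.

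Both de novo enzymes fell, and Dnmt3a fell in all 5 comparisons. At day 1, Dnmt3a stood at 66.4, 67.4 and 64.2 CPM in vehicle, 55.2, 56.7 and 56.1 in AA and 44.5, 42.4 and 41.0 in PGE2 libraries. At day 3 it stood at 71.0, 81.0 and 74.0 CPM in vehicle, 56.8, 63.0 and 47.0 in AA and 34.2, 37.0 and 37.4 in PGE2 libraries. At both days the 3 groups were fully separated in the order vehicle, AA, PGE2. The log2 changes of Dnmt3a were -0.24 ± 0.07 (adjusted p = 0.00636) and -0.44 ± 0.07 (6.4e-06) with AA at days 1 and 3, and -0.63 ± 0.07 (1.6e-08) and -1.05 ± 0.07 (3.1e-13) with PGE2. The last is 2.08-fold lower. At day 6, vehicle libraries held 80.5, 81.6, 82.7 and 93.7 CPM of Dnmt3a and AA libraries 74.8, 73.0, 73.0 and 69.3, without overlap and with a change of -0.22 ± 0.06 (adjusted p = 0.0135). That call was lost without AA replicate 4 (-0.20, adjusted p = 0.0528). The AA response of Dnmt3a at day 6 minus that at day 3 was 0.21 ± 0.09 and did not pass the edgeR test (adjusted p = 0.113).

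Dnmt3b, the less abundant de novo enzyme, showed no called change with AA at day 1. There it stood at 13.9, 12.5 and 12.7 CPM in vehicle and 12.7, 12.4 and 13.4 in AA libraries, which overlapped, and at 9.53, 10.8 and 9.03 in PGE2 libraries, which were all lower. At day 3 the values of Dnmt3b were 14.2, 12.7 and 13.9 CPM in vehicle, 9.68, 9.87 and 9.58 in AA and 7.39, 7.95 and 8.20 in PGE2 libraries, fully separated. At day 6 they were 10.5, 9.41, 8.76 and 9.35 CPM in vehicle and 5.88, 7.02, 5.90 and 6.07 in AA libraries, also separated. Log2 changes of Dnmt3b were -0.02 ± 0.09 (adjusted p = 0.891), -0.49 ± 0.10 (1.3e-04) and -0.61 ± 0.10 (9.3e-04) with AA at days 1, 3 and 6. With PGE2 they were -0.42 ± 0.10 (adjusted p = 5.2e-04) and -0.79 ± 0.10 (4.3e-08). Per library, the log2 count ratio of Dnmt3b to Dnmt3a was -3.15 ± 0.17 (SD, n = 4) in vehicle and -3.54 ± 0.13 with AA at day 6, without overlap (exact two-sided permutation p = 0.0286, adjusted p = 0.148). In the other direction, this ratio was higher than in vehicle without overlap with AA at day 1 (by 0.22) and with PGE2 at days 1 and 3 (by 0.22 and 0.26), each with an exact permutation p of 0.1 and an adjusted p of 0.148. With AA at day 3 the difference was -0.04, with overlap.

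The 3 Tet genes, whose products begin the removal of 5-methylcytosine, did not move together. Tet1 fell in 4 of 5 comparisons at very low counts: libraries held 10 to 12 reads in vehicle, 7 to 9 with AA and 2 to 5 with PGE2 at day 1, and 16 to 36, 4 to 18 and 3 to 8 at day 3. In CPM these day-3 values of Tet1 were 2.60, 2.74 and 1.50 in vehicle, 1.31, 0.399 and 0.464 in AA and 0.329, 0.217 and 0.542 in PGE2 libraries. All treated libraries were lower than all vehicle libraries, and AA replicate 1 was the highest treated one. At day 6, Tet1 held 3.10, 1.94, 2.44 and 1.79 CPM (28 to 58 reads) in vehicle and 0.704, 1.14, 1.52 and 0.889 (14 to 27 reads) in AA libraries, without overlap. The fitted log2 changes of Tet1 were -1.59 ± 0.34 (adjusted p = 3.8e-04) and -1.14 ± 0.25 (0.00557) with AA at days 3 and 6, and -1.68 ± 0.52 (0.0068) and -2.62 ± 0.39 (1.0e-06) with PGE2 at days 1 and 3. At day 1 with AA the change of -0.56 ± 0.42 did not pass (adjusted p = 0.299). At these read numbers the 95% intervals are wide, from -3.41 to -1.82 for PGE2 at day 3.

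Tet2 passed the test against vehicle only with AA at day 6, where it rose. Day-6 values were 58.8, 66.5, 64.6 and 53.2 CPM in vehicle and 81.8, 67.1, 81.4 and 72.9 in AA libraries, with the lowest AA library just above the highest vehicle library. The change was 0.32 ± 0.08 on the log2 scale (adjusted p = 0.0122). At days 1 and 3, Tet2 in treated libraries overlapped with vehicle, with group ranges of 40.7 to 47.6, 41.2 to 45.0 and 37.2 to 43.7 CPM at day 1 and 53.3 to 64.7, 52.2 to 63.9 and 61.4 to 64.2 CPM at day 3 for vehicle, AA and PGE2. The log2 changes there were between -0.09 and 0.11, and their 95% intervals between them reached from -0.26 to 0.27.

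Tet3, the Tet gene with the highest level per length, passed the test in none of the 5 comparisons. It ranged from 148 to 186 CPM in vehicle, 162 to 171 in AA and 169.6 to 185 in PGE2 libraries at day 1, and from 187 to 223, 148 to 197 and 187 to 194 CPM at day 3. At day 6 the vehicle libraries held 190.2 to 215 CPM of Tet3 and the AA libraries 198 to 222. Groups overlapped at every day. The 95% intervals of the log2 changes of Tet3 were -0.28 to 0.18, -0.37 to 0.08 and -0.09 to 0.16 with AA at days 1, 3 and 6, and -0.17 to 0.29 and -0.29 to 0.16 with PGE2 at days 1 and 3.

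The 3 core genes of PRC2 differed among themselves: Ezh2 fell in all 5 comparisons, Suz12 fell in 3 and rose in 1, and Eed fell in 1. Ezh2, the main methyltransferase of the complex, stood at 106, 112 and 121 CPM in vehicle, 102, 93.8 and 99.9 in AA and 92.6, 93.3 and 93.3 in PGE2 libraries at day 1. At day 3 Ezh2 stood at 105, 107 and 104 CPM in vehicle, 83.4, 82.9 and 77.8 in AA and 67.6, 68.3 and 71.1 in PGE2 libraries. Treated libraries were all below vehicle at both days, and at day 3 the PGE2 libraries were also all below AA. At day 6 the values were 104, 109, 101 and 93.3 CPM in vehicle and 85.4, 88.9, 83.3 and 85.8 in AA libraries, without overlap. The log2 changes of Ezh2 were -0.19 ± 0.05 (adjusted p = 0.00197), -0.37 ± 0.05 (5.5e-07) and -0.25 ± 0.06 (0.00641) with AA at days 1, 3 and 6. With PGE2 they were -0.28 ± 0.05 (adjusted p = 2.0e-05) and -0.61 ± 0.05 (1.4e-11), the last 1.52-fold lower.

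Suz12, which holds the complex together, reversed its place relative to vehicle between day 1 and day 6 of AA. At day 1 it stood at 216, 222 and 210.1 CPM in vehicle, 173, 181 and 175 in AA and 160.0, 164 and 157 in PGE2 libraries, fully separated. At day 3 the AA libraries, at 186, 193 and 182 CPM of Suz12, overlapped with vehicle at 191, 189 and 194, and the PGE2 libraries were lower at 149, 148 and 139. At day 6 the AA libraries held 208, 183, 204 and 195 CPM of Suz12, all above the vehicle libraries at 165, 174, 164 and 117, of which replicate 4 was the lowest. The log2 changes were -0.29 ± 0.04 (adjusted p = 1.8e-06), -0.03 ± 0.04 (0.563) and 0.35 ± 0.10 (0.0227) with AA at days 1, 3 and 6, and -0.43 ± 0.04 (6.4e-10) and -0.40 ± 0.04 (4.3e-09) with PGE2. Without vehicle replicate 4, the day-6 rise of Suz12 was 0.24 ± 0.05 (adjusted p = 0.00195). The day-6 call was lost without AA replicates 1, 3 or 4 (adjusted p of 0.0583, 0.0617 and 0.051) and with no filter on low counts (0.0648).

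Eed, which binds the methylated histone tail and stimulates Ezh2, passed the test in 1 of the 5 comparisons. It stood at 63.4, 65.8 and 69.9 CPM in vehicle, 61.6, 64.7 and 66.6 in AA and 63.1, 60.1 and 60.6 in PGE2 libraries at day 1, where the PGE2 libraries lay just below all vehicle libraries. At day 3 Eed stood at 57.0, 55.3 and 61.9 CPM in vehicle, 58.6, 54.8 and 54.6 in AA and 47.8, 54.3 and 54.5 in PGE2 libraries, and again the PGE2 but not the AA libraries were all below vehicle. At day 6 it stood at 67.3 to 75.3 CPM in vehicle and 73.2 to 76.6 in AA libraries, which overlapped. Eed changed by -0.15 ± 0.06 with PGE2 at day 3 (adjusted p = 0.0319), and it did not pass with DESeq2 (-0.16, adjusted p = 0.066), in a fit of those 2 groups alone (-0.13, 0.108), without vehicle replicate 3 (-0.12, 0.12) or without PGE2 replicate 1 (-0.09, 0.213). The other log2 changes of Eed lay between -0.11 and 0.04 and did not pass.

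Ratios within a library showed how Ezh2 stood against its partners. The log2 count ratio of Ezh2 to Ezh1, its paralogue, was 1.85, 1.63 and 1.81 in vehicle, 1.34, 1.25 and 1.43 in AA and 0.91, 0.85 and 0.99 in PGE2 libraries at day 3. These groups were fully separated, and the PGE2 mean was lower than the vehicle mean by a log2 difference of -0.84. At day 1 the differences from vehicle were -0.12 with AA and -0.27 with PGE2 without overlap, and at day 6 -0.23 with AA with overlap. Ezh1 itself rose with PGE2 at day 3 by 0.24 ± 0.07 (adjusted p = 0.00527) and passed no other test against vehicle. The ratio of Ezh2 to Suz12 was -0.66, -0.66, -0.70 and -0.33 in vehicle and -1.28, -1.04, -1.29 and -1.18 in AA libraries at day 6, with a difference of means of -0.61 and vehicle replicate 4 the highest. In the other direction, it differed by 0.10 with AA and 0.15 with PGE2 at day 1, both with overlap. At day 3 the differences were -0.34 and -0.21 without overlap. The ratio of Ezh2 to Eed was lower than in vehicle without overlap in all 5 contrasts. Its differences were -0.15, -0.32 and -0.29 with AA at days 1, 3 and 6 and -0.16 and -0.45 with PGE2 at days 1 and 3. Where groups did not overlap, exact two-sided permutation p-values were 0.1 at days 1 and 3 and 0.0286 at day 6, the smallest each design allows. After adjustment over the 40 comparisons (8 ratios in 5 contrasts) they were 0.148. No ratio passed, and with these smallest p-values none could.

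**Figure D3:**
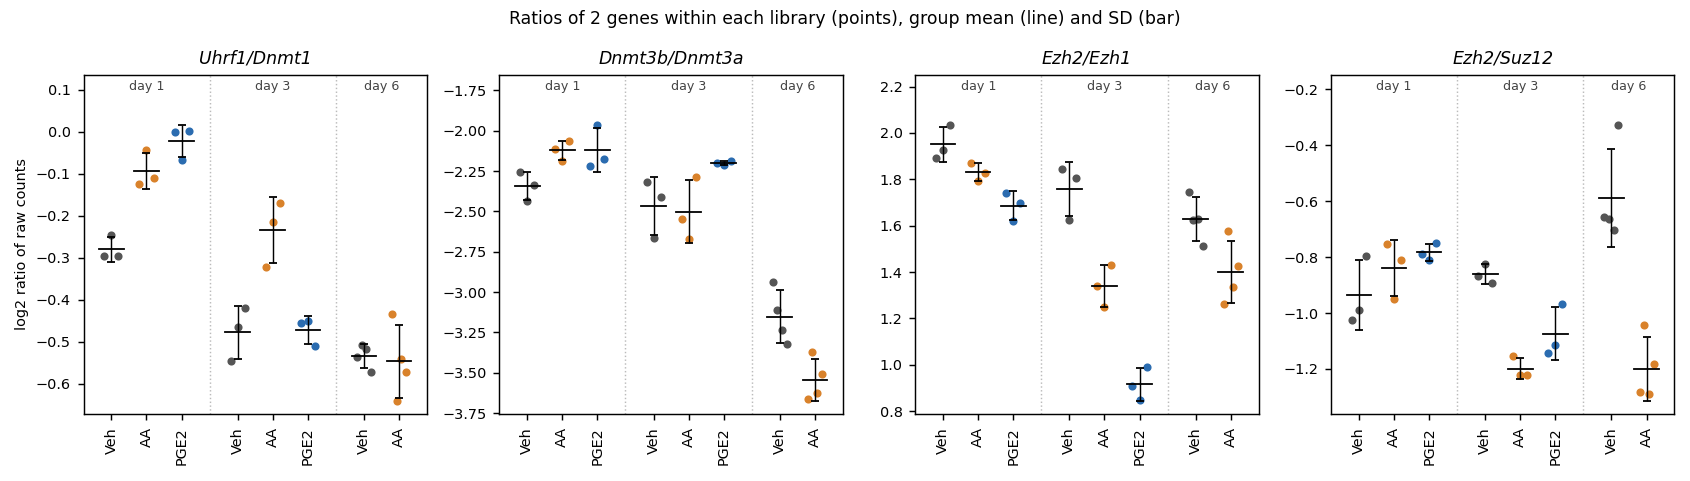
Log2 ratio of raw counts of 2 genes within each library (y axis, log2 units, not starting at 0) for 4 pairs; points are libraries, lines group means and bars SDs. The Ezh2 to Ezh1 ratio is lowest in the PGE2 libraries of day 3, from 0.85 to 0.99, and the Ezh2 to Suz12 ratio of the AA libraries at day 6 lies between -1.29 and -1.04, below all 4 vehicle libraries.

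At day 6, leaving out vehicle replicate 4 kept all 8 member calls. The log2 changes were then -0.32 for Dnmt1, -0.35 for Uhrf1, -0.17 for Dnmt3a, -0.62 for Dnmt3b and -1.24 for Tet1. Those of Ezh2 and Tet2 were -0.29 and 0.26.

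AA and PGE2 libraries were also set against each other, at doses that differ (25 µM and 50 nM). At day 1, 3 of 10 members were higher with AA and none lower, where 11.3% of all tested genes were higher and 16.5% lower; Dnmt3b differed by 0.40 ± 0.10 (adjusted p = 0.00197), Dnmt3a by 0.39 ± 0.07 (1.2e-04) and Suz12 by 0.14 ± 0.04 (0.0158). The Suz12 call at day 1 was lost without AA replicate 2 (adjusted p = 0.0855) or PGE2 replicate 3 (0.0802), and a fit of those 2 groups alone called 6 of the 9 members it tested, 4 higher and 2 lower with AA. At day 3, 6 were higher with AA and none lower, against 18.1% and 20.3% of all tested genes. Among the called members Dnmt3a differed by 0.61 ± 0.07 (adjusted p = 1.4e-07), Uhrf1 by 0.39 ± 0.05 (2.8e-07) and Suz12 by 0.36 ± 0.04 (8.3e-08). Dnmt3b differed by 0.30 ± 0.10 (adjusted p = 0.0218), Ezh2 by 0.24 ± 0.05 (5.4e-04) and Dnmt1 by 0.15 ± 0.05 (0.0151). Tet1, at low counts, differed by 1.12 ± 0.56 at day 1 (adjusted p = 0.145) and 1.02 ± 0.48 at day 3 (0.0939) and passed at neither day. The Dnmt3b call was lost without PGE2 replicate 1 (adjusted p = 0.0772) and with DESeq2 (0.0667), and the Dnmt1 call without AA replicates 1 or 2 (0.121 and 0.0685) or PGE2 replicate 3 (0.0545). Scaling by library totals alone ended both calls (adjusted p of 0.0528 for Dnmt3b and 0.128 for Dnmt1), which left 4. At day 3, 22 of 26 replication and mitosis genes were also higher with AA than with PGE2 and none lower, and their part in the result was not tested. Tet2, Tet3 and Eed passed at neither day; at day 3 the 95% intervals of their differences were -0.24 to 0.06, -0.31 to 0.15 and -0.02 to 0.22.

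Vehicle organoids themselves differed between day 1 and day 3: 3 members were higher at day 3 and 4 lower, where 19.8% of all tested genes were higher and 20.5% lower. Tet1 rose by 1.42 ± 0.33 (adjusted p = 9.9e-04), Tet2 by 0.39 ± 0.08 (2.9e-04) and Dnmt3a by 0.19 ± 0.07 (0.0275). Uhrf1 fell by 0.34 ± 0.05 on the log2 scale (adjusted p = 1.7e-06), Eed by 0.19 ± 0.06 (0.00904), Suz12 by 0.18 ± 0.04 (0.0016) and Dnmt1 by 0.14 ± 0.05 (0.0169). Dnmt3a lost its call without vehicle day-1 replicates 1 or 3 or day-3 replicate 2 (adjusted p of 0.0614, 0.0953 and 0.153), Dnmt1 without day-1 replicate 2 (0.0548) and Eed without day-1 replicate 3 (0.0553). The Dnmt3a call was also lost with DESeq2 (adjusted p = 0.084) and with no filter on low counts (0.104), so that it held in 9 of 14 alternatives. The Dnmt1 call was also lost with the stricter filter (adjusted p = 0.0887) and in a fit of those 2 groups alone (0.0677). Of 26 replication and mitosis genes, 25 were lower in vehicle at day 3 and none higher, with a median log2 change of -0.37, and their part in the result was not tested. When libraries were scaled by their totals alone, Dnmt1, Suz12 and Eed lost their calls, which left 3 members higher and 1 lower.

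The change of the responses over time was tested as a difference of differences. From day 1 to day 3 the PGE2 response became more negative for 5 of 10 members and more positive for none, where 11.6% and 12.6% of all tested genes did so. The differences were -0.63 ± 0.07 for Uhrf1 (adjusted p = 2.6e-08), -0.42 ± 0.10 for Dnmt3a (0.00262), -0.38 ± 0.07 for Dnmt1 (9.7e-05) and -0.33 ± 0.07 for Ezh2 (8.2e-04). Dnmt3b differed by -0.38 ± 0.14 (adjusted p = 0.0475), and that call was lost without vehicle day-1 replicates 2 or 3, PGE2 day-1 replicates 1 or 2, vehicle day-3 replicates 1 or 3, or any PGE2 day-3 replicate (adjusted p of 0.0556 to 0.108). It was also lost with DESeq2 (0.141), library totals alone (0.101), no filter (0.133), a replicate block (0.0576) and only the groups compared (0.0624), so that it held in 6 of 20 alternatives. The AA response became more negative for Dnmt3b by -0.47 ± 0.13 (adjusted p = 0.0116) and Dnmt1 by -0.21 ± 0.07 (0.034) where 7.95% of all tested genes did so. It became more positive for Suz12 by 0.26 ± 0.06 (adjusted p = 0.00292), as for 1487 of 14850 genes tested. The AA call on Dnmt3b was lost with DESeq2 (-0.46, adjusted p = 0.0668). That on Dnmt1 was lost without vehicle day-1 replicates 1 or 3, AA day-1 replicates 1 or 3, vehicle day-3 replicates 1 or 3 or AA day-3 replicate 3 (adjusted p of 0.0541 to 0.0912), with no filter (0.0778) and with only the groups compared (0.0772). From day 3 to day 6, 1 member's AA response became more negative and 1 more positive, where 10.4% and 8.78% of all tested genes did: Uhrf1 by -0.25 ± 0.08 (adjusted p = 0.0227) and Suz12 by 0.37 ± 0.11 (0.0182). A fit of the 4 groups alone called neither, and scaling by library totals alone called 2 more positive, Suz12 and Dnmt3a, and none more negative. The Uhrf1 call was lost without vehicle day-3 replicate 1, AA day-3 replicate 2 or AA day-6 replicate 3 (adjusted p of 0.0794, 0.0963 and 0.052). Day 6 was deposited as a separate table, so day and table cannot be told apart there.

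Genes of the same pathways that are not members were counted from lists. For all lists below, the shares over all tested genes that fell were 22.2%, 20.1% and 15.5% with AA at days 1, 3 and 6. With PGE2 at days 1 and 3 they were 28.9% and 30.1%. The shares that rose were 19.5%, 21.2%, 15.3%, 27.0% and 28.9% in the same order. Several list counts lay near or below these shares, and no list was tested as a set. Of 10 other PRC2 genes tested, 4, 4 and 1 fell with AA at days 1, 3 and 6 and 4 and 4 with PGE2 at days 1 and 3, while 1, 1, 1, 2 and 3 rose. Rbbp4, a histone-binding subunit that PRC2 shares with other complexes, fell in all 5 comparisons, from 242 ± 8.72 CPM (SD, n = 3) in vehicle to 151 ± 0.577 with PGE2 at day 3 (log2 change -0.68 ± 0.05, adjusted p = 1.8e-13). Its relative Rbbp7 fell by 0.57 ± 0.05 on the log2 scale there (adjusted p = 1.0e-11). Jarid2, which helps bring PRC2 to chromatin, fell by 0.32 ± 0.06 (adjusted p = 9.2e-05). Epop, which joins PRC2 to elongin, rose in all 5 comparisons, from 21.0 ± 1.58 CPM in vehicle to 81.3 ± 13.6 with PGE2 at day 1 (log2 change 1.94 ± 0.11, adjusted p = 9.0e-12), and by 0.98, 1.14 and 0.60 with AA at days 1, 3 and 6.

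Of 22 genes of PRC1, the complex that reads the PRC2 mark or ubiquitinates histone H2A, 4, 9 and 9 fell and 2, 0 and 1 rose with AA at days 1, 3 and 6. With PGE2, 7 and 12 fell and 3 and 1 rose at days 1 and 3. List medians were -0.13, -0.18 and -0.14 with AA and -0.15 and -0.27 with PGE2. With AA at day 1 the count that fell was near the 22.2% of all tested genes. Cbx2, a chromobox reader, fell in all 5 comparisons, by 1.14 ± 0.11 with PGE2 at day 3 (adjusted p = 4.0e-10). Cbx6 fell by 0.82 ± 0.07 and 0.86 ± 0.08 with AA at days 3 and 6 (adjusted p of 9.8e-11 and 1.5e-05). Rnf2, the ubiquitin ligase, fell by 0.66 ± 0.08 with PGE2 at day 3 (adjusted p = 2.4e-08), and Bmi1, its partner, fell by 0.67 ± 0.07 with PGE2 at day 1 (9.9e-10). Of 7 enzymes that remove Polycomb marks, 0 to 2 fell and 1 or 2 rose in each comparison. The H3K27 demethylase Kdm6b rose by 0.43 ± 0.12 with PGE2 at day 1 (adjusted p = 0.00507) and its relative Kdm6a by 0.25 ± 0.07 with AA at day 6 (0.0155).

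Of 17 other DNA methylation genes tested, 6, 6 and 3 fell and 2, 1 and 1 rose with AA at days 1, 3 and 6, and 7 and 10 fell and 2 and 2 rose with PGE2 at days 1 and 3. List medians were -0.07, -0.09 and -0.04 with AA and -0.11 and -0.23 with PGE2. With AA at day 6 the count that fell was near the 15.5% of all tested genes. Ahcy, which clears the product that inhibits methyltransferases, fell from 204 ± 9.34 CPM in vehicle to 126 ± 3.96 with PGE2 at day 1 (log2 change -0.69 ± 0.05, adjusted p = 1.1e-13). Hells, a remodeller needed for full DNA methylation, fell by 0.50 ± 0.05 with PGE2 at day 3 (adjusted p = 4.3e-10). Zbtb4, a reader of methylated DNA, rose by 0.91 ± 0.13 with PGE2 at day 1 (adjusted p = 3.6e-07).

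Dnmt1, Uhrf1 and Ezh2 are known to be expressed mostly in dividing cells, and genes of replication and mitosis moved too. Of 26 such genes, 11, 7 and 17 fell and 3, 3 and 0 rose with AA at days 1, 3 and 6, with medians of -0.11, -0.08 and -0.20. With PGE2, 8 fell and 6 rose at day 1 (median -0.06) and 21 fell and 1 rose at day 3 (median -0.41). At day 3, Mki67, a marker of cycling cells, fell by 0.17 ± 0.06 with AA (adjusted p = 0.018) and 0.40 ± 0.06 with PGE2 (8.3e-07). Pcna, the replication clamp, had a log2 change of -0.04 ± 0.06 with AA (adjusted p = 0.651) and fell by 0.30 ± 0.06 with PGE2 (1.1e-04). The part of these genes in the members' results was not tested. The log2 ratio of Dnmt1 to Pcna at day 3 was 0.22, 0.40 and 0.22 in vehicle, 0.06, -0.02 and -0.32 in AA and -0.01, 0.01 and 0.05 in PGE2 libraries, with both treatments below vehicle. That of Ezh2 to Mki67 was -2.78, -2.82 and -2.80 in vehicle, -3.08, -3.04 and -2.86 in AA and -3.06, -3.01 and -2.97 in PGE2 libraries, again all below vehicle (each of these 4 contrasts had an exact permutation p of 0.1 and an adjusted p of 0.148). At the other days, Dnmt1 to Pcna overlapped with vehicle, with differences of -0.07 with AA and -0.06 with PGE2 at day 1 and -0.18 with AA at day 6. Ezh2 to Mki67 overlapped with AA at days 1 and 6 (differences of -0.08 and -0.03) and lay below vehicle with PGE2 at day 1 (-0.18, exact permutation p = 0.1, adjusted p = 0.148).

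**Figure D4:**
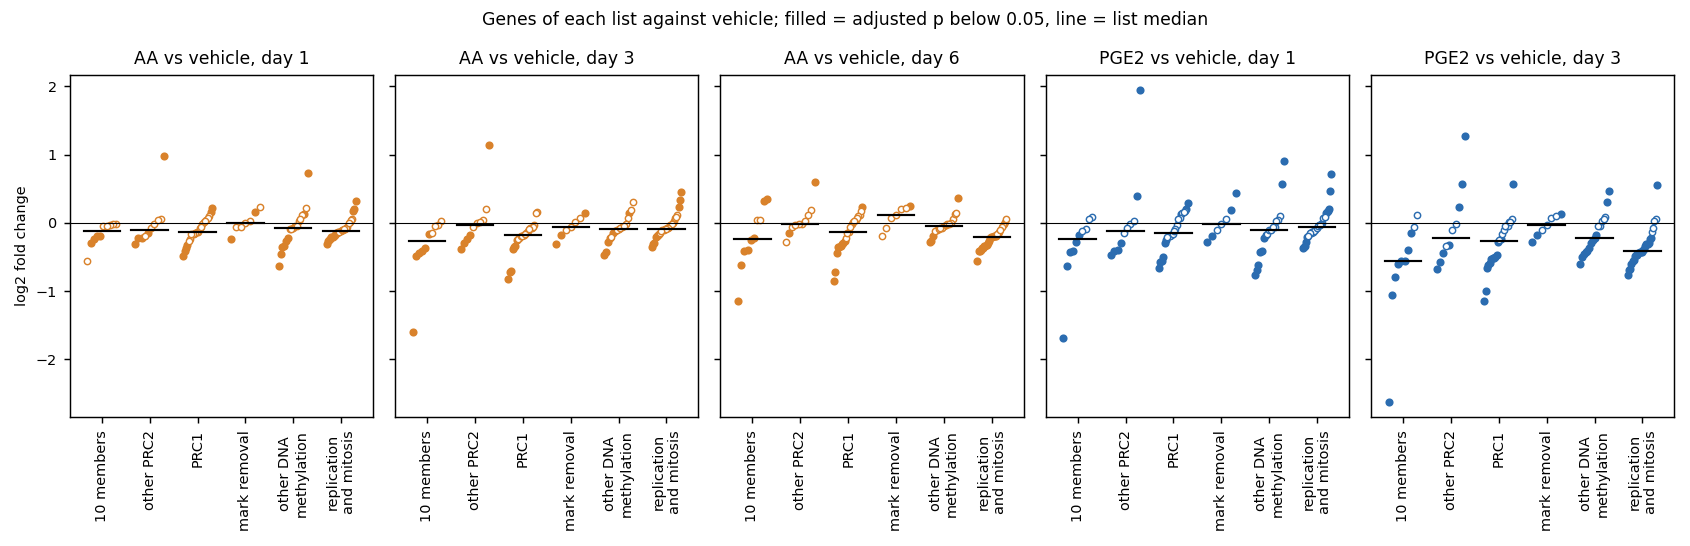
Log2 fold change against vehicle (y axis) of the 10 members and of 5 lists of related genes in 5 comparisons; each point is a gene, filled where adjusted p was below 0.05, and the line is the list's median. At day 3 of PGE2 the medians of the members and of the replication and mitosis genes were -0.55 and -0.41, and Epop is the highest point of the other PRC2 genes in each panel.

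Genes that these systems commonly hold silent mostly did not pass the filter on low counts. Of 12 genes commonly silenced by Polycomb, 4 passed; 1, 2 and 1 of these rose and 1, 1 and 0 fell with AA at days 1, 3 and 6, and 1 and 2 rose and 1 and 1 fell with PGE2 at days 1 and 3. Those that fell were Gata4 at day 1 (log2 changes -0.12 with AA and -0.15 with PGE2) and Pax6 at day 3 (-1.29 and -1.96), both regulators of development; Pax6, with a mean below 2 CPM over the libraries of days 1 and 3, was named after its values were seen. Cdkn2b, an inhibitor of the G1 cyclin-dependent kinases, rose in all 5 comparisons, from 5.78 ± 0.49 CPM (SD, n = 3) in vehicle to 14.8 ± 1.91 with AA and 16.4 ± 1.37 with PGE2 at day 3 (log2 changes 1.35 ± 0.13 and 1.50 ± 0.12, adjusted p of 4.0e-10 and 7.7e-12). At day 6 it rose with AA by 1.09 ± 0.10 (adjusted p = 1.6e-05). Its neighbour Cdkn2a was at 0 to 0.406 CPM in all libraries and was not tested. Of 12 germline genes commonly silenced by DNA methylation, 1 passed the filter and none was called in the 5 comparisons. Of 7 imprinted genes tested at days 1 and 3 and 6 at day 6, 1, 1 and 1 rose and 1, 3 and 1 fell with AA, and 2 and 3 rose and 1 and 3 fell with PGE2. List medians of the imprinted genes were 0.20, -0.07 and -0.20 with AA and 0.37 and 0.09 with PGE2. Grb10, an adaptor that restrains growth factor signalling, fell in all 5 comparisons, from 14.2 ± 1.54 CPM in vehicle to 2.28 ± 0.351 with PGE2 at day 3 (log2 change -2.63 ± 0.19, adjusted p = 3.6e-13). It fell from 23.7 ± 1.81 to 5.18 ± 1.12 CPM with AA at day 6 (log2 change -2.19 ± 0.13, adjusted p = 1.1e-06). Igf2r, another imprinted gene, rose in all 5 comparisons, by 0.33 ± 0.07 with AA and 0.48 ± 0.07 with PGE2 at day 1 (adjusted p of 0.00116 and 1.2e-05).

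The genes whose pattern was most like each member were found by the root-mean-square difference of centred log2 CPM over the 18 libraries of days 1 and 3, among 10336 genes. For Dnmt1 they were Zwilch (0.06), Cenpf (0.07) and Ezh2 (0.08), where Dnmt1 itself varied by 0.25 about its mean. For Uhrf1 they were Kif20a, Umps and Recql4 (0.08 to 0.09 against 0.35), and for Ezh2 they included Pitrm1 and Mtbp (0.05 and 0.07 against 0.24). Over the 8 libraries of day 6, where Dnmt1 varied by 0.23 about its mean, the difference was 0.26 to Zwilch, 0.26 to Cenpf and 0.16 to Ezh2, so the first 2 were no longer close. Uhrf1 varied by 0.22 there and differed from Kif20a by 0.07. For Dnmt3a they were Dleu2, Nup210 and Anp32a, for Dnmt3b Srsf7, Amot and Hnrnpa1, and for Suz12 Seh1l, Ankrd40 and Atad3a. For Tet3, which varied little, they were Hdac4, Ash1l and Ep300, for Tet2 Rsrp1, Fchsd2 and Akap8l, for Eed Eif4g2, Cct2 and Gpbp1, and for Tet1, at low counts, Nav1, Wnk2 and Dach1. At day 6 some of these differed from the member by more than it varied about its own mean. For Suz12 (0.25) these were Ankrd40 (0.30) and Atad3a (0.44), for Dnmt3b (0.32) Amot (0.34), and for Dnmt3a (0.13) Dleu2 (0.24). So did Akap8l for Tet2, Ash1l and Ep300 for Tet3, and Cct2 and Gpbp1 for Eed. The other genes named for these members differed by less.

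Exons of 5 members overlap those of a gene on the other strand in the annotation. No label or file names the strand setting of the counting, so reads of such pairs may not have been told apart. The counted partners of Eed, Tet2 and Dnmt3a stood below 2 CPM in every library, and the partners of Ezh2 and Suz12 are not used here.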

How the data were processed

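Gene counts of 26 libraries were deposited by the authors as 2 tables of raw whole-number counts per Ensembl gene, 1 for days 1 and 3 and 1 for day 6. Per the submitters' processing notes, cutadapt, STAR, DESeq2 and limma 3.46 were used; those notes name the build GRCh38.p6, a human build, while the identifiers are of mouse genes. Libraries were made with a directional kit, per the labels' protocols. From the counts as deposited, edgeR 4.0.16 (TMM scaling, filterByExpr, glmQLFit with robust estimation, glmQLFTest) was run on 18 libraries of days 1 and 3 (14850 genes), on 8 of day 6 (14663) and, for the difference of AA responses between days 3 and 6, on all 26 (15504), with 1 mean per group and Benjamini-Hochberg adjustment over all genes tested. The calling was tested on simulated counts in which few genes were changed, as many raised as lowered. Far more genes were called in the data, so that test does not cover scaling under such wide change. Replicate numbers were not used to pair libraries in the reported fits, and no 2 libraries were alike within sampling noise. Ratios used raw counts with 0.5 added and exact permutation tests. Levels per kilobase used the union of exons in GENCODE M21. The text names all members, 9 panel genes where measured, up to 3 called genes of largest change per list and treatment contrast with a mean of at least 2 CPM (some repeats left out), and the 3 nearest patterns per member; some genes that this rule names are not reported here. The members and lists were chosen with earlier results of these data known. Alternatives were DESeq2 1.42.0, median-ratio scaling, library totals alone, no filter, a stricter filter (mean of 5 CPM), exclusion of ribosomal and mitochondrial transcripts, a replicate block, only the groups compared, and leaving out each library.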

Additional observations from a re-analysis of the deposited data

Results flagged for a closer look

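Of 20 groups of 4 values examined (10 genes in vehicle and AA libraries of day 6), 3 held a library far from the other 3; chance sets a library apart in this way in about 1 in 20 groups. Vehicle replicate 4 of day 6 held 93.7 CPM of Dnmt3a, where the other 3 vehicle libraries held 80.5 to 82.7. The same library held 117 CPM of Suz12, where the others held 164 to 174. AA replicate 2 of day 6 held 7.02 CPM of Dnmt3b, where the other AA libraries held 5.88 to 6.07.

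For 6 members, the response to an agent differed between days by the test of the difference itself (edgeR, adjusted over all genes tested). The PGE2 response at day 3 minus that at day 1 was -0.63 on the log2 scale for Uhrf1, -0.42 for Dnmt3a, -0.38 for Dnmt1, -0.38 for Dnmt3b and -0.33 for Ezh2. Of all tested genes, 11.6% became more negative and 12.6% more positive, and the Dnmt3b call held in 6 of 20 alternatives. For AA, the response at day 3 minus that at day 1 was -0.47 for Dnmt3b, -0.21 for Dnmt1 and 0.26 for Suz12. Of all tested genes, 7.95% became more negative and 1487 of 14850 more positive. The Dnmt1 call held in 11 of 20 alternatives, and the Dnmt3b call was lost with DESeq2. The AA response at day 6 minus that at day 3 was -0.25 for Uhrf1 and 0.37 for Suz12, and there day and table cannot be told apart. Of all tested genes, 10.4% became more negative and 8.78% more positive, and a fit of only the groups compared called neither member.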

How the results depend on the processing

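Of 1735 alternative fits of single members, 1649 kept the direction and side of the threshold, 64 lost the call and 22 gained one; none reversed a called change. The number of members called was within 1.5 times the reported number in 170 of 175 alternatives, and 66 of 80 alternatives of a level did not move it beyond 1 SD. No ratio passed in the reported run. Of 296 alternatives of a ratio, 291 stayed on that side of the threshold and 5 gained a call. A run without 1 library was adjusted over only the ratio comparisons holding it, 8 for a day-6 library against 40 as reported. The 5 gained calls came with that smaller adjustment. With 3 against 3 libraries the exact p cannot go below 0.1, so ratios of days 1 and 3 could not pass. Ratios of day 6 could not pass in the reported run either, where their smallest exact p of 0.0286 was adjusted over 40 comparisons. The agreement for days 1 and 3 was fixed in advance, and for no day does this tally tell of stability. With only the groups compared, 6 members were called for AA against PGE2 at day 1 (3 in the reported fit) and 0 for the AA response at day 6 minus day 3 (2 in the reported fit); with library totals alone, 4 were called for vehicle at day 3 against day 1, 3 higher and 1 lower (7 in the reported fit). Leaving out 1 library at a time gave 4 to 4, 5 to 6 and 6 to 8 members for AA against vehicle at days 1, 3 and 6, 6 to 6 and 7 to 9 for PGE2 at days 1 and 3, 2 to 3 and 5 to 7 for AA against PGE2, 5 to 7 for vehicle over time, 2 to 4 and 4 to 6 for the AA and PGE2 responses at day 3 minus day 1, and 1 to 3 for the AA response at day 6 minus day 3. The cause was not tested. Same-numbered libraries did not deviate together (correlations from -0.083 to 0.137); with a replicate block, the number called was 4 in place of 5 for the PGE2 response at day 3 minus day 1, Dnmt3b being lost (adjusted p = 0.0576), and the same as reported elsewhere. The stricter filter dropped Tet1, whose 2 to 58 reads per library limit its precision most.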

Other observations

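Outside the Polycomb and DNA methylation genes, 2 further imprinted genes fell at day 3 at low levels, while with PGE2 at that day 3 of the 7 tested imprinted genes rose and 3 fell (median log2 change 0.09). Those that rose were H19, an imprinted noncoding RNA, by 2.28 ± 0.28, Cdkn1c, a cell-cycle inhibitor, by 0.64 ± 0.15 and Igf2r by 0.55 ± 0.07. H19, with a mean below 2 CPM over the libraries of days 1 and 3, was named after its values were seen. Plagl1, a zinc-finger regulator of growth, went from 4.66 ± 0.584 CPM (SD, n = 3) in vehicle to 1.60 ± 0.364 with AA and 1.83 ± 0.433 with PGE2 (log2 changes -1.54 ± 0.22 and -1.35 ± 0.21, edgeR adjusted p of 1.3e-06 and 2.6e-06). Peg3, another zinc-finger gene, went from 4.61 ± 0.949 to 1.67 ± 0.24 and 2.00 ± 0.366 CPM (log2 changes -1.46 ± 0.22 and -1.22 ± 0.21). At day 1, Peg3 rose with PGE2 by 0.69 ± 0.25 (adjusted p = 0.0182). At day 6 neither gene passed the test with AA.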
